A study of Mus musculus with 36 samples.

Results

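The iron handling genes examined here were 10 genes of mouse liver, of the 53715 gene identifiers in the count table: the hepcidins Hamp and Hamp2, transferrin (Trf), the transferrin receptors Tfrc and Tfr2, the ferritin subunits Fth1 and Ftl1, the iron exporter ferroportin (Slc40a1), and Id1 and Smad7, targets of bone morphogenetic protein (BMP) signalling. They were named as a list, with earlier results of these data known. Liver RNA came from 36 male C57BL/6 mice, 10 weeks old, with 12 libraries per diet. Control mice ate AIN93G, a purified rodent diet. The others ate a diet matched in macronutrients that held 10% powder of red tomato (Red) or of tangerine tomato (Tangerine), from 4 weeks of age for 6 weeks. Red tomatoes carry lycopene mainly in the all-trans form, and tangerine tomatoes mainly as cis isomers. The comparisons ask whether tomato, or the type of tomato, changed the RNA of these genes.

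The liver sets the iron level of the whole body. When iron stores are high, BMP ligands from sinusoidal endothelial cells signal through SMAD proteins in hepatocytes, which raises Hamp, Id1 and Smad7. Hepcidin is secreted and makes cells degrade ferroportin, so that less iron enters the blood. Inside cells, iron regulatory proteins bind hairpins called iron-responsive elements when iron is scarce. Binding in the 5′ UTR blocks translation of the ferritins and ferroportin, and binding in the 3′ UTR of Tfrc protects that mRNA from decay.

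The hairpins are printed because they mark on which side of the coding region the genes listed here carry this iron-sensing sequence. Transcripts of GENCODE M21 (GRCm38) were searched on the transcript strand for a hairpin of 17 bases: a C, 5 stem bases, the loop letters CAGTG with any base after them, and 5 bases that pair with the first stem, G-T pairs allowed. No other motif was searched, so none overlaps it. Capitals mark the 6-base loop, CAGTG and the base after it. Coordinates are GRCm38, and the sign is the gene's strand.
Tfrc 3′ UTR, chr16:32631225-32631241 (+): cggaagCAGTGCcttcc
Tfrc 3′ UTR, chr16:32631604-32631620 (+): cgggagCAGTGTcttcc
Tfrc 3′ UTR, chr16:32631669-32631685 (+): cggagaCAGTGAtctcc
Tfrc 3′ UTR, chr16:32631716-32631732 (+): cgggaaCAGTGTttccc
Fth1 5′ UTR, chr19:9982738-9982754 (+): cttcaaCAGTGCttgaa
Ftl1 5′ UTR, chr7:45459785-45459801 (-): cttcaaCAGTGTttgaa
Slc40a1 5′ UTR, chr1:45925471-45925487 (-): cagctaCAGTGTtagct
Ftl1-ps1 5′ UTR, chr13:74406434-74406450 (+): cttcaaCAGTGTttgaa

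Tfrc held 4 matches, all in its 3′ UTR, and Fth1, Ftl1 and Slc40a1 held 1 each, in the 5′ UTR. Among the other iron genes examined below, Alas2 held a match in its 5′ UTR and Bola3 in its 3′ UTR, not printed here. Any match on chromosome 18, where Smad7 lies, was left out of this list, so the absence of Smad7 does not show that it lacks a match. The 2 ferritin sites have the same stem, and the site of Ftl1 is repeated letter for letter in Ftl1-ps1, a retrogene copy of Ftl1 described below. Over all annotated genes, chromosome 18 included, 31 of 20916 with a 5′ UTR (0.148%) and 129 of 21707 with a 3′ UTR (0.594%) held a match in that region. A match describes letters only and is not a measured site.

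Hepcidin and transferrin RNA, among the best known liver products of this pathway, were close to absent from the count table. Hamp (ENSMUSG00000050440, chromosome 7, 30942368 to 30944032, minus strand) and Hamp2 (chromosome 7, 30922372 to 30924681, minus strand), its close copy, had 0 counts in each of the 36 libraries. A count of 3, taken as the floor, is 0.150 CPM (counts scaled to a common library size) in the shallowest library and 0.0846 CPM in the deepest. Trf (chromosome 9, 103204001 to 103230444, minus strand), the plasma iron carrier, had 28 counts over all 36 libraries. No library held more than 3 of them, and 6 libraries of each diet held 0. These 3 genes were not tested, so the diets could not be compared for either hepcidin or for transferrin.

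The 8 hepatocyte markers, such as Alb and Apoa1, were abundant, with sums between 91324 and 130086 CPM per library. Hamp and Hamp2 lie wholly within the span of Gm44662, a lincRNA on the plus strand (chromosome 7, 30916983 to 30946824). No exon base of Hamp lies in an exon of another gene, whereas 15.3% of the exon bases of Hamp2 do. Gm44662 has 412 exon bases and had 127098 counts, a mean of 130 CPM. Trf shares its strand with Gm20425 (chromosome 9, 103190208 to 103230307), a read-through model that joins Srprb and Trf. Of the exon bases of Trf, 95.9% lie within the span of Gm20425 and 63.5% within its exons. Gm20425 itself had 8 counts.

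**Figure D1:**
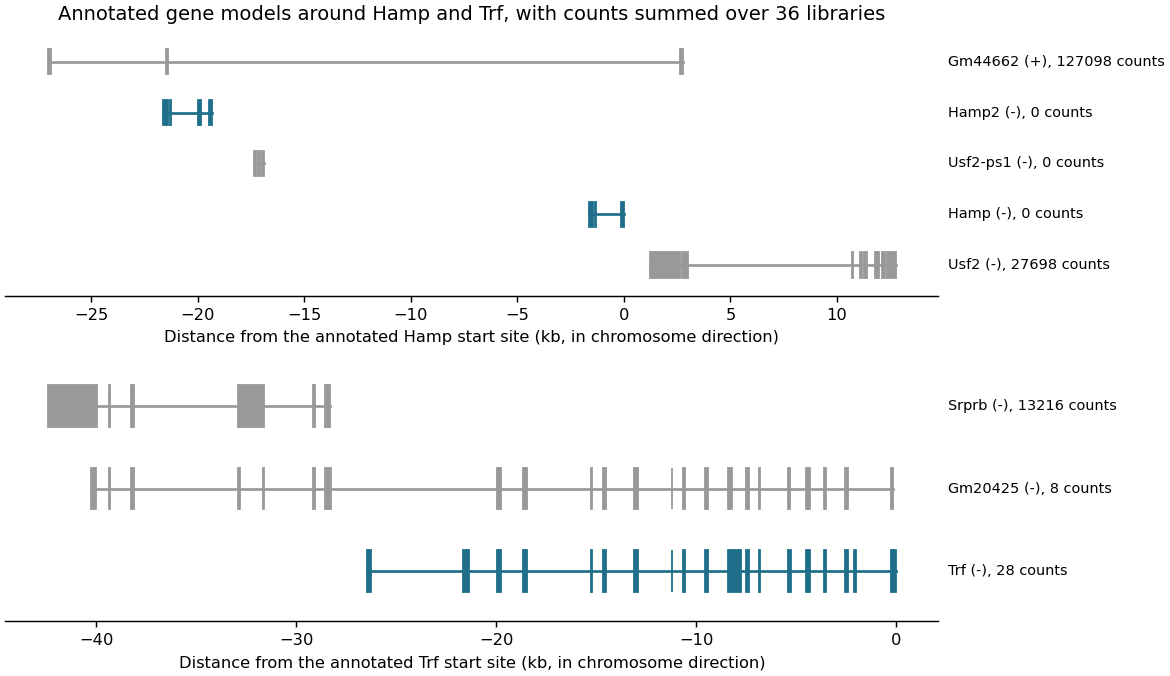
Gene models around Hamp (upper panel) and Trf (lower panel), with boxes for exons, lines for introns, distance from the gene's start site in kb on the horizontal axis, and strand and summed counts at the right. Hamp and Hamp2, with 0 counts, sit inside Gm44662 with 127098, and most exons of Trf, with 28 counts, are shared with Gm20425 with 8.

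Across the genome, absence of counts went with a position wholly inside other genes, as for Hamp and Hamp2. Of 14052 protein coding genes with no exon base inside another gene, 2755 (19.6%) had 0 counts in all 36 libraries. Of the 685 whose exons all lie in introns of other genes, as those of Hamp do, 669 (97.7%) had 0 counts. The share was 97.9% for hosts on the same strand (186 of 190) and 97.9% for hosts on the opposite strand (467 of 477). Of all 1464 genes wholly inside other genes, with exon overlap allowed as for Hamp2, 1294 (88.4%) had 0 counts. Trf lies partly inside another gene. Of 6374 such genes, 348 (5.46%) had 0 counts and 82.0% had 36 counts or more. That class pools every share of overlap short of the whole. It therefore does not describe genes like Trf, with 95.9% of its exon bases inside another gene. Among the other iron genes examined below, Hif1a, Alas2 and Fdx1l also lie wholly inside other genes, and all 3 had 0 counts. The table does not show which reads make up the count of Gm44662, so its values are given as those of Gm44662 and not of Hamp. The part of the counting of overlapping genes in these zeros was not tested.

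**Figure D2:**
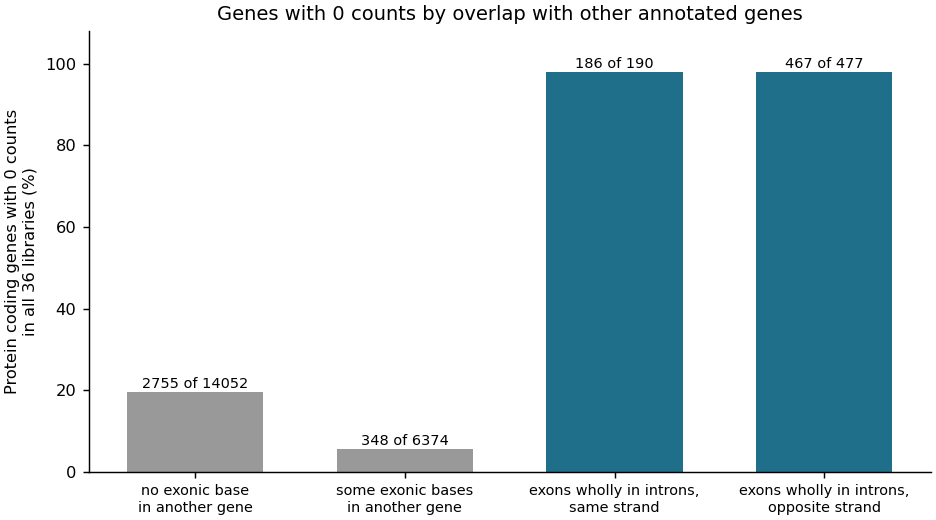
Percentage of protein coding genes with 0 counts in all 36 libraries (vertical axis) by overlap of their exons with other annotated genes, with the number of genes above each bar. Genes wholly in introns of others were at 0 in 97.9% on either strand, against 19.6% of genes free of overlap and 5.46% of genes partly inside others to any extent.

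The other 7 genes passed the filter on low counts. No exon base of Tfrc, Tfr2, Fth1, Slc40a1, Id1 or Smad7 lies in another gene, and 34.6% of those of Ftl1 do. On the scale of CPM per kb of exon, which allows levels to be compared between genes, the order of the means over 36 libraries was Fth1 (308), Ftl1 (229), Tfr2 (79.9), Slc40a1 (21.7), Id1 (6.11), Smad7 (2.80) and Tfrc (2.45). Tfr2 was the steadiest, with a coefficient of variation (CV, the SD over the mean of CPM) of 7.76%. Id1 varied the most, with a CV of 49.4%, and Tfrc and Smad7 followed with 33.99% and 33.64%. Smad7 and Tfrc, neighbours at the low end, differed by less than their spread over libraries.

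With adjusted p from edgeR's quasi-likelihood test over all 14068 tested genes and a threshold of 0.05, 0 of the 7 passed in any comparison. The share of all tested genes past the threshold was 0.149% for red against control, 0.0142% for tangerine against control, 1.71% for tangerine against red, 0.00711% for both tomato diets against control and 1.18% for any difference among the diets. At an unadjusted p under 0.05 the members numbered 1 of 7 for red against control (Tfrc), where 13.3% of all genes did so. For tangerine against control they numbered 3 of 7 (Tfrc, Id1 and Smad7), beside 5.47% of all genes. Tangerine against red gave 1 of 7 (Id1) beside 15.1% of all genes, and both tomato diets against control gave 1 of 7 (Tfrc) beside 6.77%. For any difference among the diets they numbered 2 of 7 (Tfrc and Id1), beside 13.9%. DESeq2's test called Tfrc for any difference among the diets, where it called 3.01% of all genes, and no member otherwise. The limma-voom fit called Tfrc for red against control, where it called 10.5% of all genes, for both tomato diets against control (0.242%) and for any difference (7.9%). The median log2 fold change of the 7 was -0.02, 0.13, 0.15 and 0.03 in these 4 comparisons, and that of all tested genes was between -0.01 and 0.00. The comparisons share control or tomato libraries and are not independent.

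**Figure D3:**
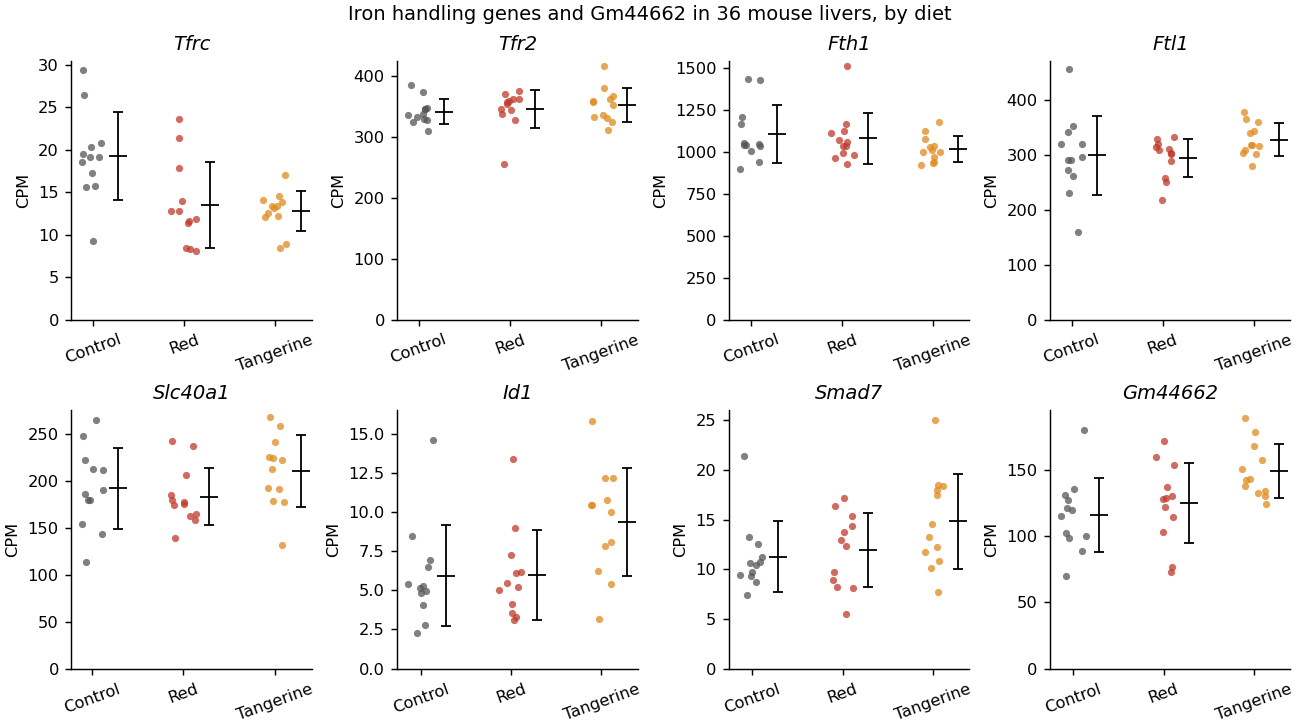
CPM (vertical axis, from 0) of the 7 tested iron handling genes and Gm44662 in each liver, by diet, with the mean and SD of 12 libraries beside the points. For Tfrc all 12 Tangerine livers lie below the Control median of 19.1 CPM, and for Id1 11 of 12 Tangerine livers lie above the Control median of 5.21 CPM.

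Transferrin receptor 1 (Tfrc, chromosome 16, 32608920 to 32632794, plus strand), which takes up iron-loaded transferrin, had a fitted level of 0.701 times control on red and 0.664 times control on tangerine, differences that did not pass the adjusted threshold. Its level was lowest at 9.20 CPM, median 19.1 and highest at 29.4 on control. Red livers ran from 8.08 CPM through a median of 12.3 to 23.7, and Tangerine livers from 8.42 through 13.2 to 16.99. The ranges overlapped, but 10 of 12 Red and 12 of 12 Tangerine livers lay below the Control median. The means were 19.2 ± 5.13 CPM (SD, n = 12) on control, 13.5 ± 5.03 CPM (SD, n = 12) on red and 12.8 ± 2.33 CPM (SD, n = 12) on tangerine.

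The log2 fold change of Tfrc was -0.51 (SE 0.160) for red against control, with an unadjusted edgeR p of 0.00277 and an adjusted p of 0.134. For tangerine against control it was -0.59 (SE 0.160), with p of 0.000735 and adjusted p of 0.553. The pair of tomato diets did not separate, with -0.08 (95% interval -0.39 to 0.24) for tangerine against red. For both tomato diets against control it was -0.55 (SE 0.136), with p of 0.000245 and adjusted p of 0.257. The call depended on the test: limma-voom with sample weights gave -0.72 for red against control with an adjusted p of 0.00485 (10.5% of all genes passed in that fit), within a range of 0.00485 to 0.352 over the other settings tried.

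Transferrin receptor 2 (Tfr2, chromosome 5, 137569840 to 137587481, plus strand), which senses transferrin-bound iron on hepatocytes, was nearly flat across diets. Control livers ran from 310 CPM through a median of 337 to 386, Red livers from 255 through 356 to 375, and Tangerine livers from 311 through 355 to 416. The groups overlapped almost fully, and a single Red liver, mouse 186, lay below all others. Its log2 fold change was 0.02 (95% interval -0.08 to 0.12) for red against control and 0.05 (95% interval -0.05 to 0.15) for tangerine against control. Both intervals end at or below 0.15 on the log2 scale.

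**Figure D4:**
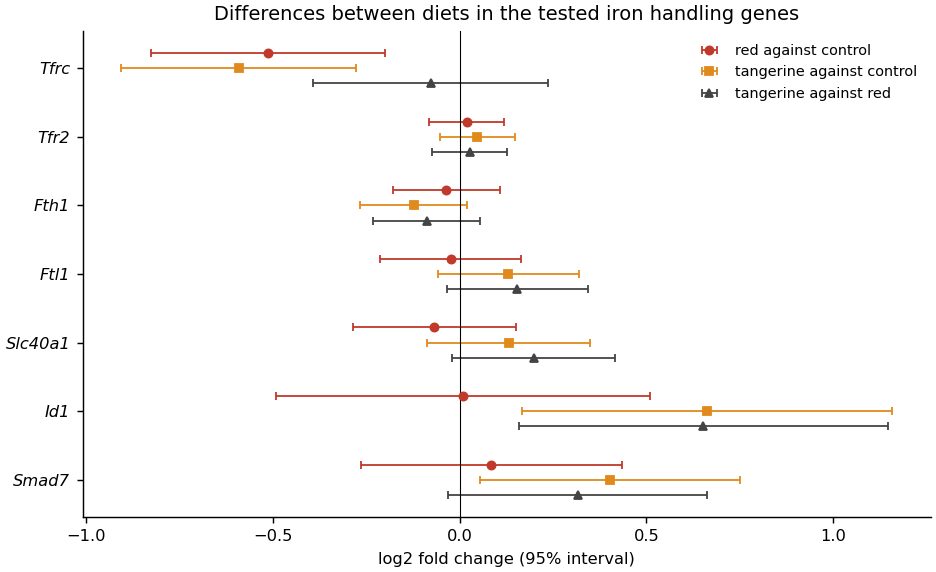
Log2 fold change with its 95% interval (horizontal axis) of the 7 tested iron handling genes in 3 comparisons of diets, from edgeR. The intervals of Tfrc against control lie below 0 for both tomato diets and those of Id1 and Smad7 for tangerine against control lie above 0, but none passed adjustment over 14068 genes.

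Ferritin stores iron in a shell of heavy and light subunits. The heavy subunit gene Fth1 (chromosome 19, 9980598 to 9985098, plus strand), whose product oxidises incoming iron, ran from 899 CPM through a median of 1045 to 1433 on control. Red livers ran from 929 through 1047 to 1512, and Tangerine livers from 922 through 1004 to 1180. The groups overlapped, with the highest 3 livers in Control (2) and Red (1). Fth1 had a log2 fold change of -0.04 (95% interval -0.18 to 0.11) for red against control and -0.12 (95% interval -0.27 to 0.02) for tangerine against control, with adjusted p of 0.876 and 0.954.

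The light subunit gene Ftl1 (chromosome 7, 45457944 to 45459884, minus strand), whose product helps iron settle in the core, ran from 158 CPM through 293 to 455 on control. Red livers ran from 218 through 306 to 332, and Tangerine livers from 279 through 318 to 378. Tangerine livers were the most alike and 11 of 12 lay above the Control median, within the Control range. The log2 fold change was 0.13 (95% interval -0.06 to 0.32) for tangerine against control and 0.15 (95% interval -0.03 to 0.34) for tangerine against red.

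Counts of Ftl1 cannot be fully told apart from those of Ftl1-ps1 on chromosome 13, since the sources used here do not say how reads shared between copies were counted. The transcripts share a run of 524 identical bases, and 73.4% of the 50-base windows of Ftl1 occur in the copy. The copy held 549748 counts, against 300164 for Ftl1. Ftl1 made up 35.3% of their sum on control, 35.6% on red and 34.8% on tangerine, so the split was about the same in each diet. Their summed level was 839 ± 164 CPM (SD, n = 12) on control, 825 ± 87.9 CPM (SD, n = 12) on red and 941 ± 84.7 CPM (SD, n = 12) on tangerine. Ftl1-ps1 had a log2 fold change of 0.21 (SE 0.0775) for tangerine against red, with an edgeR p of 0.0107 and an adjusted p of 0.175, and all 12 Tangerine livers lay above its Control median.

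Ferroportin (Slc40a1, chromosome 1, 45908068 to 45926523, minus strand), the exporter that hepcidin removes, ran from 114 CPM through 188 to 265 on control. Red livers ran from 139 through 177 to 243, and Tangerine livers from 132 through 218 to 268. All 3 groups overlapped. The log2 fold change was -0.07 (95% interval -0.29 to 0.15) for red against control, 0.13 (95% interval -0.09 to 0.35) for tangerine against control and 0.20 (95% interval -0.02 to 0.42) for tangerine against red, with an adjusted p of 0.400 for the last.

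Id1 and Smad7 had their highest mean on tangerine, without passing the adjusted threshold. Id1 (chromosome 2, 152736251 to 152737410, plus strand), an inhibitor of DNA binding that BMP signals induce in hepatocytes, ran from 2.27 CPM through 5.21 to 14.6 on control. Red livers ran from 3.08 through 5.33 to 13.4, and Tangerine livers from 3.16 through 10.2 to 15.8. The ranges overlapped, and 11 of 12 Tangerine livers lay above both the Control and the Red median. The means were 5.93 ± 3.22 CPM (SD, n = 12) on control, 5.97 ± 2.89 CPM (SD, n = 12) on red and 9.37 ± 3.44 CPM (SD, n = 12) on tangerine. Its log2 fold change was 0.66 (SE 0.253) for tangerine against control, with an edgeR p of 0.0128 and an adjusted p of 0.732. For tangerine against red it was 0.65 (SE 0.252), with p of 0.0138 and adjusted p of 0.193, and for red against control 0.01 (95% interval -0.49 to 0.51).

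Smad7 (chromosome 18, 75367529 to 75395935, plus strand), the inhibitory SMAD that feeds back on the receptors, ran from 7.37 CPM through 10.5 to 21.4 on control. Red livers ran from 5.53 through 12.6 to 17.2, and Tangerine livers from 7.72 through 13.9 to 25.04. Of the Tangerine livers, 10 of 12 lay above the Control median. The log2 fold change was 0.40 (SE 0.177) for tangerine against control, with an edgeR p of 0.0296 and an adjusted p of 0.823, and 0.08 (95% interval -0.26 to 0.43) for red against control.

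The gene that spans both hepcidins stood in the same order. Gm44662 ran from 70.2 CPM through 118 to 181 on control, from 73.3 through 129 to 172 on red and from 124 through 143 to 189 on tangerine. All 12 Tangerine livers lay above the Control median. Its log2 fold change for tangerine against control was 0.36 (SE 0.122), with an edgeR p of 0.00518 and an adjusted p of 0.587. In bulk liver, fewer cells of a type and less RNA per cell cannot be told apart for any of these genes.

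From mouse to mouse, Id1 and Smad7 varied together. After each diet's mean was subtracted from log2 CPM, the 21 pairs of tested genes were compared over 36 libraries, with permutation within diets and p adjusted over the 21 pairs. Id1 and Smad7 had a Pearson r of 0.703 (permutation p 1e-05, the smallest that 100000 resamples can give, adjusted p 0.00021). Spearman's rho was 0.668 (permutation p 3e-05, adjusted p 0.00063). The r was 0.756 within control, 0.707 within red and 0.681 within tangerine, and 0.683 without the 2 livers farthest from the median of Id1.

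Fth1 and Slc40a1 ran opposite, with r of -0.638 (permutation p 5e-05, adjusted p 0.000525) and rho of -0.467 (permutation p 0.0054, adjusted p 0.0567). Within diets r was -0.893 on control, -0.385 on red and -0.481 on tangerine, and without the 2 livers farthest in Fth1 it was -0.511. Control mice 137 and 245 and Red mouse 177 had the 3 highest levels of Fth1, between 1427 and 1512 CPM, with 114, 143 and 139 CPM of Slc40a1, at the low end of their diets. Control mouse 137 also had the lowest total count of all libraries and the lowest sum of sinusoidal endothelial markers, 101 CPM. That sum was 293 CPM in Control mouse 245 and 290 CPM in Red mouse 177. Tfr2 and Smad7 had r of 0.525 (permutation p 0.00184, adjusted p 0.0129), but rho was 0.356 (permutation p 0.0376, adjusted p 0.189). That relation rested on 2 livers: r was 0.230 without Red mouse 186 and Tangerine mouse 226. Tfrc and Tfr2 had r of -0.417 (permutation p 0.0160, adjusted p 0.0839). The other 17 pairs had adjusted p of at least 0.339.

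**Figure D5:**
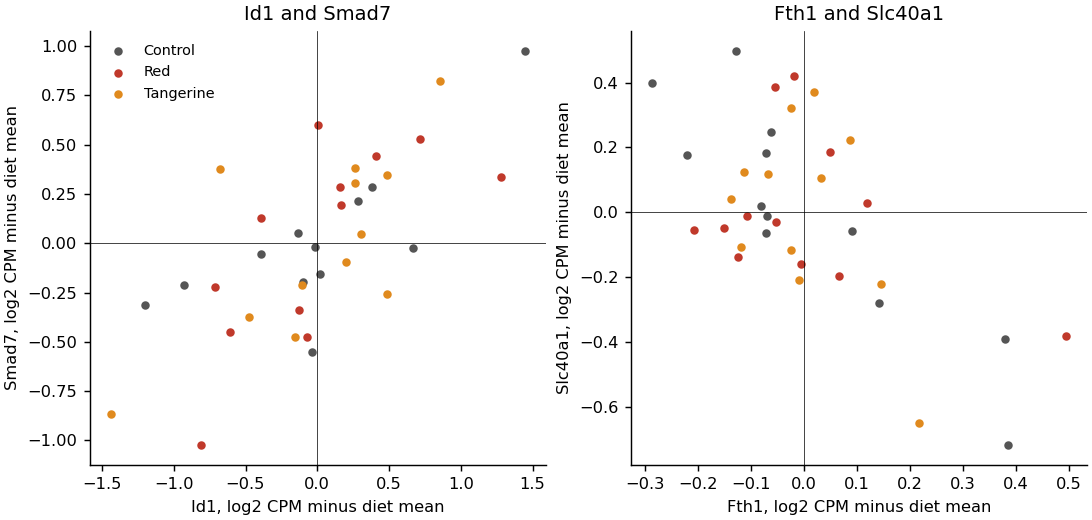
Log2 CPM minus the diet mean for Id1 and Smad7 (left) and for Fth1 and Slc40a1 (right), 1 point per liver, coloured by diet. The left panel rises with r of 0.703, and the right panel falls with r of -0.638, with 4 livers of high Fth1 and low Slc40a1 at the lower right.

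Measures of the libraries were set beside each tested member in 91 relations, adjusted together. The length slope of a library is the slope of log2 CPM, after each gene's mean was subtracted, on the log2 of annotated exon bases. Control mouse 137 had the lowest slope, -0.131, and Tangerine mouse 242 the next lowest, -0.0665. Only the relation of Slc40a1 with that slope passed by Pearson's r, at 0.622 (permutation p 0.00019, adjusted p 0.0173), with rho of 0.481 (permutation p 0.00441, adjusted p 0.1003). The r was 0.669, 0.401 and 0.698 within Control, Red and Tangerine, and 0.388 without the 2 farthest livers. With that slope removed, Fth1 and Slc40a1 had r of -0.541 (adjusted p 0.00798) and Id1 and Smad7 0.702. By rank, the B cell and T cell marker sums also passed with Slc40a1. The B cell sum had rho of -0.561 (permutation p 0.00069, adjusted p 0.0314) and r of -0.476 (permutation p 0.00327, adjusted p 0.0992). Within diets that r was -0.236 on control, -0.363 on red and -0.755 on tangerine, and it was -0.348 without the 2 farthest livers. Of the 6 B cell markers 5 were detected and Ms4a1 was at 0. Their sum ranged from 17.3 to 50.4 CPM on control, 19.5 to 66.2 on red and 9.33 to 98.6 on tangerine. The T cell sum, with 8 of 8 markers detected, had rho of -0.541 with Slc40a1 (permutation p 0.00035, adjusted p 0.0314) and r of -0.308 (permutation p 0.0246, adjusted p 0.194). That r was -0.720 on control, -0.394 on red and -0.401 on tangerine, and -0.633 without the 2 farthest livers. The sum ranged from 3.62 to 7.41 CPM on control, 3.12 to 243 on red and 4.12 to 8.39 on tangerine. The part of exon length, B cells or T cells in the values of Slc40a1 was not tested.

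Gm44662 was set beside the 7 tested members in the same way. It varied with Id1, with r of 0.479 (permutation p 0.00428, adjusted p 0.0300) and rho of 0.361 (permutation p 0.0352, adjusted p 0.246). Within diets r was 0.556, 0.637 and 0.099 on control, red and tangerine, and 0.364 without the 2 farthest livers, so the relation was uneven.

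The rest of the iron pathway was read from 9 lists with 133 other genes, of which 114 were tested. Red against control, tangerine against control and both tomato diets against control each called 0 of the 114. At an unadjusted edgeR p under 0.05 they gave 10 (8.77%), 8 (7.02%) and 7 genes (6.14%), beside 13.3%, 5.47% and 6.77% of all tested genes. Tangerine against red called 3 of 114 (2.63%), beside 1.71% of all tested genes, and 9 (7.89%) had an unadjusted p under 0.05, beside 15.1%. The calls were 2 higher and 1 lower on tangerine, where 0.732% of all tested genes were called higher and 0.981% lower. Slc11a2 (DMT1), which carries ferrous iron out of endosomes, was lower on tangerine, and Fdx1, a ferredoxin with an iron-sulfur cluster that feeds electrons to mitochondrial P450 enzymes, and Cebpa, a hepatocyte transcription factor that also acts on the Hamp promoter, were higher.

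Slc11a2 averaged 29.8 ± 3.16 CPM (SD, n = 12) on control, 33.97 ± 4.08 CPM (SD, n = 12) on red and 28.4 ± 2.61 CPM (SD, n = 12) on tangerine. None of the 12 Tangerine livers lay above the Red median, and the log2 fold change of tangerine against red was -0.26 (SE 0.0637, adjusted edgeR p 0.0265). Fdx1 averaged 70.1 ± 6.32, 64.5 ± 5.15 and 76.0 ± 9.21 CPM (SD, n = 12 each), with 11 of 12 Tangerine livers above the Red median and a log2 fold change of 0.24 (SE 0.0593, adjusted edgeR p 0.0289). Cebpa averaged 323 ± 42.0, 292 ± 46.0 and 363 ± 54.7 CPM (SD, n = 12 each), with 11 of 12 above the Red median and 0.31 (SE 0.0845, adjusted edgeR p 0.0452). A score of 10 clock genes differed in the same comparison, by 3.81 units (Tangerine 1.57, Red -2.24; permutation p 0.0001, adjusted p 0.0012). With that score as a covariate the 3 log2 fold changes were -0.09, 0.12 and 0.10, with adjusted edgeR p of 0.597, 0.486 and 0.684. The part of the clock genes in these 3 calls was not tested beyond that fit.

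Upstream of hepcidin, the BMP list held 25 tested genes and none passed in any comparison. Bmp6, the iron-induced ligand made by endothelial cells, averaged 5.99 ± 1.33 CPM (SD, n = 12) on control, 6.41 ± 0.905 CPM (SD, n = 12) on red and 7.34 ± 1.30 CPM (SD, n = 12) on tangerine, with 11 of 12 Tangerine livers above the Control median. Its log2 fold change for tangerine against control was 0.29 (edgeR p 0.0125, adjusted p 0.724). Smad1, which carries the BMP signal to the nucleus, had 0.16 (edgeR p 0.0609, adjusted p 0.920) in that comparison.

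Of 6 other tested BMP targets none passed, and 5 had a positive log2 fold change for tangerine against control, with a median of 0.28 beside -0.01 for all tested genes. For red against control 4 of the 6 were positive, with a median of 0.13, and for tangerine against red 4 of 6, with a median of 0.04. Id3 averaged 33.6 CPM on control, 45.9 on red and 44.4 on tangerine, and was chosen after its values were seen. Smad6, the other inhibitory SMAD of this pathway, had 0.26 (edgeR p 0.0372, adjusted p 0.865), and Id2 had 0.42 (edgeR p 0.0269, adjusted p 0.819). In the IL-6 and STAT3 list, the inflammatory route to hepcidin, Cebpa was the only call among 12 tested genes.

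Iron regulatory proteins and hypoxia factors gave no call among 10 tested genes. Aco1, which becomes iron regulatory protein 1 when it loses its cluster, had 0.09 for tangerine against control (edgeR p 0.0420, adjusted p 0.879). Ireb2, iron regulatory protein 2, had 0.28 for tangerine against red (edgeR p 0.0414, adjusted p 0.306). Iron import, chaperones and oxidoreductases gave Slc11a2 as the 1 call among 17. Ferroxidases and plasma carriers gave none among 5. In that list Hp, the plasma protein that binds free hemoglobin, had 0.21 for tangerine against red (edgeR p 0.0135, adjusted p 0.193) and the ferroxidase Heph -0.31 (edgeR p 0.0311, adjusted p 0.273), at a mean under 2 CPM.

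Heme synthesis gave no call among 10 tested genes. Its enzymes Urod and Ppox had log2 fold changes of 0.13 (edgeR p 0.0125, adjusted p 0.187) and -0.14 (edgeR p 0.0837, adjusted p 0.403) for tangerine against red. Heme transport and breakdown gave none among 10. Hmox1, which breaks heme open and frees its iron, had 0.39 for tangerine against control (edgeR p 0.0266, adjusted p 0.819), where 1 Tangerine liver reached 45.1 CPM against a median of 15.1. Abcg2, an exporter of porphyrins, had 0.18 for red against control (edgeR p 0.0192, adjusted p 0.280). Iron-sulfur cluster assembly gave Fdx1 as the 1 call among 19.

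The genes most like Id1, Tfrc and Fth1 were taken by Pearson's r of log2 CPM after removal of the diet means over the 36 libraries, as a description with no test. For Id1 these were 2810459M11Rik (0.728), Mn1 (0.711), Map3k21 (0.692) and Zfp354b (0.664). For Tfrc they were Stxbp4 (0.662), Epha3 (0.649), Slc39a9 (0.648) and Prkdc (0.627). Higher values were reached for Fth1, by Hcfc1r1 (0.857), Gpx4-ps2 (0.843), S100a1 (0.842) and Dnajc19 (0.838). The r values of 1 gene come from the same libraries, and the part of depth or length slope in them was not tested. No such list exists for Hamp, which was not tested.

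Total counts ranged from 21290169 to 33810573 per library. Marker sums for 10 cell types did not pass between diets in 40 permutation tests (lowest adjusted p 0.510). Red mouse 186 stood apart with 243 CPM of T cell markers, against at most 11.1 in the other libraries, and 6.74 CPM of adipocyte markers. Tangerine mouse 216 had 11.0 CPM of pancreatic acinar markers. Of the listed markers, Lrat of stellate cells, Ms4a1 of B cells and Cela2a of acinar cells were at 0 in all libraries. All of them lie wholly inside other genes, as Hamp does. Ahsp of the red blood cell list was not matched to an identifier. Without these 2 livers Tfrc had an adjusted edgeR p of 0.0621 for red against control, with a log2 fold change of -0.62, and the 3 calls for tangerine against red had adjusted p of 0.0943 (Slc11a2), 0.120 (Fdx1) and 0.126 (Cebpa).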

How the data were processed

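Liver RNA of 36 mice was made into libraries with a directional RNA-seq kit, per the labels' protocols. The table the authors deposited holds raw read counts per gene, not normalized. The submitters' processing notes name GRCm38.p6, FastQC, Trimmomatic and edgeR. The aligner, the counting program, its strand setting and its treatment of overlapping genes are not given in the sources used here. Symbols and positions came from GENCODE M21 (GRCm38) by identifier, and 95 identifiers had no symbol.

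edgeR 4.0.16 kept 14068 genes with filterByExpr (count of 10, total of 15, share of 0.7 of a group beyond 10 libraries) and scaled by TMM. Its robust quasi-likelihood F test was fitted to all 36 libraries without covariates, with Benjamini-Hochberg adjustment over all tested genes. Standard errors were the fold change over the square root of F. CPM used TMM-scaled library sizes and log2 CPM a prior count of 2. Replicates are separate mouse numbers, taken as separate mice, and none recurred between diets. The floor of 3 counts covers counting error only. Correlations used two-sided permutation within diets (100000 resamples, scipy 1.17.1). On simulated data for tangerine against red over 14068 genes, 79% of 100 genes at a log2 change of 0.5 and 94% at 1 were recovered, with 12 false calls. Genes were drawn independently of each other and no comparison with control was simulated. These shares therefore do not give the power for single members.

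The members and lists were chosen with earlier results of these data known. Named genes outside the 10 were the calls of each list, or otherwise the 2 with the smallest p for any difference, plus the 4 genes most like Id1, Tfrc and Fth1. Id3 was named outside this rule, after its values were seen. Other settings were RLE scaling within edgeR (called DESeq2 size factors here), the test of DESeq2 1.42.0, limma-voom (limma 3.58.1) and no low-count filter. Further settings were a covariate (clock score or mouse number), fits of 2 diets alone, and a fit without Red mouse 186 and Tangerine mouse 216. The length slope, the summed ferritin copies and the relations with library measures and Gm44662 were added after seeing the data.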

Additional observations from a re-analysis of the deposited data

Results flagged for a closer look

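Among the 114 other iron genes tested, 3 (2.63%) differed between the tomato diets by the test of that difference itself, beside 1.71% of all tested genes. For tangerine against red the log2 fold change was 0.31 for Cebpa, 0.24 for Fdx1 and -0.26 for Slc11a2. None of the 3 passed for either tomato diet against control in the edgeR test. For tangerine against red none of the 3 passed with the clock score as covariate, where 0% of all genes were called. The same held without Red mouse 186 and Tangerine mouse 216, where 0.612% were called. In the same comparison of tangerine with red, 0 of the 7 tested iron handling genes passed with edgeR, DESeq2 or limma-voom. Those tests called 1.71%, 2.89% and 5.2% of all genes. Of the 7, 1 (Id1) had an unadjusted edgeR p under 0.05, beside 15.1% of all tested genes.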

How the results depend on the processing

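Among the 7 tested members, 235 values kept direction and side of the threshold over the other settings, 11 turned direction and 3 became calls. Tfrc was the member that became a call. It passed for red against control with limma-voom (-0.72, adjusted p 0.00485) and with the length slope as covariate (-0.58, adjusted p 0.0414), and for both tomato diets against control with limma-voom (-0.68, adjusted p 0.0189), each time as 1 member. The share of all genes called in those fits was 10.5%, 1.36% and 0.242%. For any difference among the diets it was the 1 call with the DESeq2 test, with limma-voom, with the length slope and without Red mouse 186 and Tangerine mouse 216, which called 3.01%, 7.9%, 2.94% and 0.548% of all genes. By Spearman's rho 1 pair of members passed, not 3. Other iron genes past the threshold for tangerine against red numbered 0, not 3, without the low-count filter, with the clock score or mouse number as covariate, and without those 2 livers, where 0.498%, 0%, 0.227% and 0.612% of all genes were called. For red against control limma-voom called 9 of 114 (7.89%), not 0, beside 10.5% of all genes. The cause of these shifts was not tested.

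Directions that turned were those of small, uncalled values. For red against control, limma-voom gave 0.0499 for Ftl1, -0.0540 for Id1 and 0.0774 for Ppox, and the length slope gave 0.0274, -0.0127 and 0.0155. The clock score gave 0.0117 for Fth1, -0.0901 for Smad6 and 0.0152 for Cebpa in that comparison. For tangerine against red, Tfrc had 0.0772 with limma-voom and 0.0343 without the 2 livers, and Tfr2 had -0.00155 with limma-voom, -0.0123 with the clock score and -0.00840 without the 2 livers. For both tomato diets against control, limma-voom gave -0.0457 for Slc40a1 and 0.00351 for Ppox, and Fdx1 had 0.000989 with DESeq2 size factors, 0.00342 without the filter, 0.00102 with the DESeq2 test, 0.0241 with the clock score and 0.00261 with the length slope.

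Hamp, Hamp2 and Trf could not be tested under any setting. No paired analysis was possible because no mouse number occurs in more than 1 diet.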
